A study of Mus musculus with 2 samples.

Results

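The cells described here are inhibitory neurons of the ventral parafacial region of the mouse brainstem that carried transcripts of *Cck*, *Tfap2b*, *Dmbx1* or *Npff*, called members below. They were chosen from the counts of unique molecular identifiers (UMIs, 1 for each captured RNA molecule) of each cell barcode. A barcode with at least 800 genes, at most 50 hemoglobin UMIs and at most 20% mitochondrial UMIs was an inhibitory neuron when it had at least 1 UMI of *Slc32a1*, the vesicular transporter of GABA and glycine, and at least 2 UMIs of *Gad1*, *Gad2* and *Slc6a5* together. It was a member when its UMIs of *Dmbx1*, *Tfap2b*, *Cck* and *Npff* came to at least 2 and exceeded the sums of 4 other gene sets, which define the C1ql2 Prox1, Fst Gpc4, Crhbp En1 and Tac2 Tacr3 groups. The rule found 82 members among 457 inhibitory neurons, 12395 filtered barcodes and 14008 deposited barcodes.

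The cells came from 2 single-cell libraries of C57BL6/J mice aged 10 days, and each library pooled tissue of 8 animals, 4 of each sex. One library was untreated, with the condition WT in the labels, and the other came from mice given 0.2 mg of 4OH-tamoxifen daily for 3 days. Each condition has 1 library and its own batch number (1 and 2), so treatment, batch and mice cannot be told apart, and no test was made. The untreated library gave 25 members with 190480 UMIs and a median of 7603 per cell, and the 4OH-tamoxifen library 57 members with 271127 UMIs and a median of 4213. The other inhibitory neurons numbered 69 and 306, with medians of 8650 and 4364.5 UMIs. The libraries shared 40 barcodes, 0 of them members.

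Cholecystokinin, encoded by *Cck*, is a neuropeptide that many cortical and brainstem neurons release beside a fast transmitter, and neuropeptide FF, encoded by *Npff*, is best known for modulating opioid action. *Tfap2b* encodes AP-2 beta, a transcription factor of the hindbrain and of the neural crest, and *Dmbx1* a paired-type homeodomain factor of the developing midbrain and hindbrain. In this region inhibitory neurons release GABA, glycine or both, and lie among neurons that sense carbon dioxide and drive breathing. The study asked whether inhibitory neurons here sense carbon dioxide and regulate breathing. It first sorted them into classes, of which the *Cck* class was one.

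The promoters of the genes that gave the group its name are shown from the RefSeq table for GRCm38.p6, each with 250 bases before and 50 after the start that RefSeq gives, 5′ to 3′ on the gene's strand. A promoter was listed for 3 of the 5 marker genes, *Cck* (chr9:121495645-121495944, minus strand), *Tfap2b* (chr1:19211804-19212103, plus strand) and *Dmbx1* (chr4:115939877-115940176, minus strand). They are shown since transcripts of these genes were counted together in the same cells. In GENCODE M21 (GRCm38) the gene bodies span chr9:121489824-121495694 for *Cck*, chr1:19208914-19238576 for *Tfap2b*, chr4:115915119-115939926 for *Dmbx1*, chr15:102523839-102524942 for *Npff* and chr11:98386450-98388181 for *Pnmt*. The *Tfap2b* window lies inside its GENCODE gene body, which begins further upstream, whereas the *Cck* and *Dmbx1* windows span the starts of theirs. Capitals mark an E-box, CACGTG.
Cck: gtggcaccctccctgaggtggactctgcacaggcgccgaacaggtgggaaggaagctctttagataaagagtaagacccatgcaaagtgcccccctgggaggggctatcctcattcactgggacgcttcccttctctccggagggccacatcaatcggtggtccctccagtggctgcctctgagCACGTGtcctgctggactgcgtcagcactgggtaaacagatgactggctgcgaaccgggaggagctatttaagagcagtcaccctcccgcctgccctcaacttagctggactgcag
Tfap2b: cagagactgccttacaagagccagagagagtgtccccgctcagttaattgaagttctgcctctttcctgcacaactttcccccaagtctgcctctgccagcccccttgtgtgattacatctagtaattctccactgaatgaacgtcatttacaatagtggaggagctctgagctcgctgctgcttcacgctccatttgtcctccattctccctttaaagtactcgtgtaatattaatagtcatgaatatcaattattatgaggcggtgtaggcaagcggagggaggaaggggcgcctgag
Dmbx1: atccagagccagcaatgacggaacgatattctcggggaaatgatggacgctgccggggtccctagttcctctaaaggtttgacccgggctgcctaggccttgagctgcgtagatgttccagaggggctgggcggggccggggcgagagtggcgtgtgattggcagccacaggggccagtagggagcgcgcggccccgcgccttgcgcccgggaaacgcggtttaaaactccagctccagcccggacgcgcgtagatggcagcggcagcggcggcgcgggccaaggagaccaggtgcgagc

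Both strands of these windows were searched for 4 motifs that do not contain one another. The E-box CACGTG was in the *Cck* window once and in 7.15% of 32851 promoters of the same length. The AP-2 motif GCCNNNGGC (16.6% of all promoters), the homeodomain core TAATTA (5.29%) and the paired-type homeodomain motif TAATCC (7.06%) were not found in the 3 windows. These are matches of letters in a fixed window, and no binding was measured.

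Members made up 26.6% (18.0 to 36.7) of the untreated inhibitory neurons and 15.7% (12.1 to 19.9) of those of the 4OH-tamoxifen library. Ranges with a lower and an upper value in parentheses are exact 95% intervals (Clopper-Pearson for shares, Poisson for levels). The limit that 0 cells allow is 3 cells of the total, and both cover counting error only. As a share of all filtered barcodes the members were 0.747% and 0.630%. The lower share of members with 4OH-tamoxifen stood beside more inhibitory neurons with no group, 106 of 363 there and 8 of 94 in the untreated library, and the cells with no group had medians of 3651 and 4842 UMIs, fewer than the members. Within the 5 groups alone the members were 29.1% (19.8 to 39.9) and 22.2% (17.3 to 27.8), and the intervals of the libraries overlapped here and over all inhibitory neurons. When every barcode was thinned to 2000 UMIs before the rule was applied, 15 of 67 and 36 of 248 inhibitory neurons were members, 22.4% and 14.5%.

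**Figure D1:**
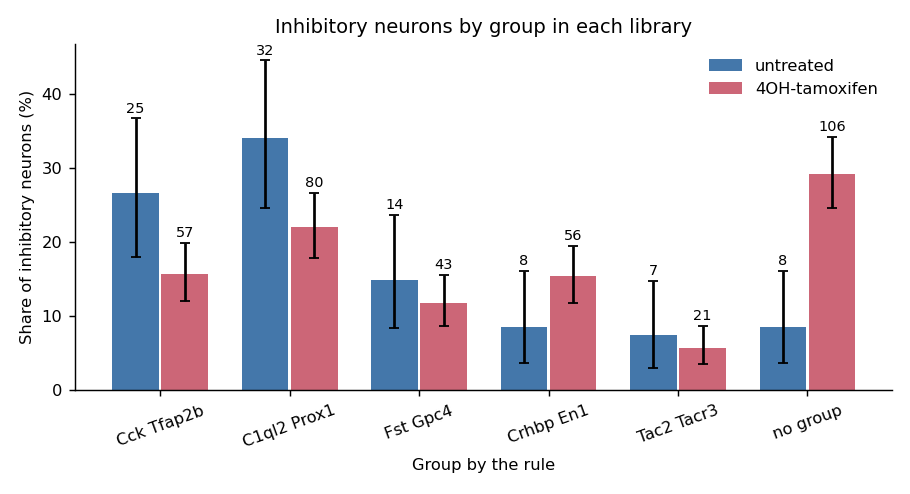
Share of inhibitory neurons (percent, y axis) in each group of the rule (x axis), for the untreated (blue) and 4OH-tamoxifen (red) library, with exact 95% binomial intervals and the number of cells above each bar. The members are the first pair of bars, at 26.6% and 15.7%.

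The counts of the rule genes chose the members and are given as a description. *Cck* was found in 20 of 25 untreated and 43 of 57 4OH-tamoxifen members, with 165 and 242 UMIs, and reached 27 and 26 UMIs in a cell. *Tfap2b* and *Dmbx1* were each found in 18 and 42 members. *Npff* was found in 13 of 25 and 14 of 57 members, with 24 and 26 UMIs. *Cck* thus had the most UMIs of the 4 genes in both libraries, and *Npff* the fewest. The gene body of *Npff* overlaps that of Gm28047 on the same strand, so its count is uncertain.

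Most members rested on more than 1 of these genes. All 4 were found in 16 members, 3 in 26, 2 in 28 and 1 in 12. Over both libraries the most common set was *Cck* with *Tfap2b* and *Dmbx1* and without *Npff*, in 4 untreated and 15 4OH-tamoxifen members, while in the untreated library all 4 genes were more common, in 8 members. *Tfap2b* with *Dmbx1* and without *Cck* followed among sets of 2 genes, in 1 and 10 members. *Npff* was found in 27 of the 63 members with *Cck* (42.9%, 30.5 to 56.0) and in 0 of the 19 without it (0 to 17.6%), at medians of 4708 and 4711 UMIs per cell. *Tfap2b* was found in 16 of 20 untreated members with *Cck* and 2 of 5 without, and in 30 of 43 and 12 of 14 with 4OH-tamoxifen. Since the rule used all of these genes, their joint counts are no independent measure.

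**Figure D2:**
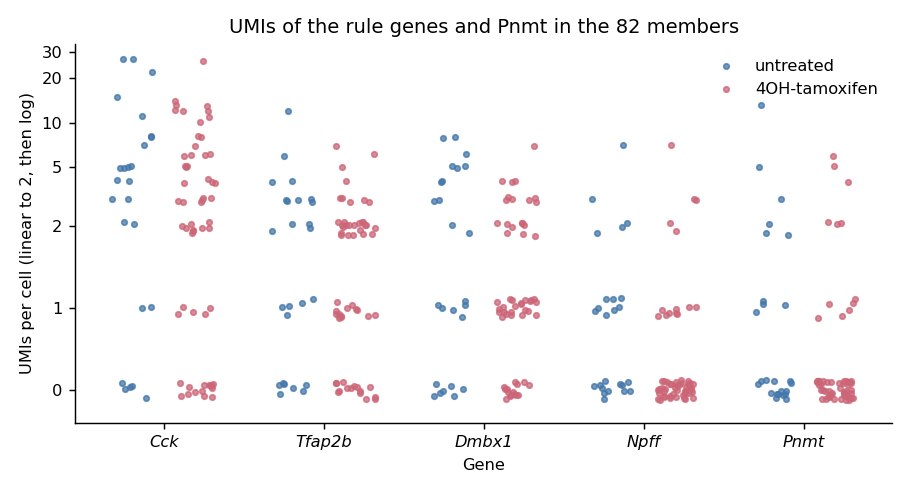
UMIs per cell (y axis, linear to 2 and logarithmic above, points jittered) of *Cck*, *Tfap2b*, *Dmbx1*, *Npff* and *Pnmt* (x axis) in the 25 untreated (blue) and 57 4OH-tamoxifen (red) members. *Cck* reached 27 and 26 UMIs, and *Pnmt*, which the rule did not use, 13 and 6.

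Near the limits of the rule, 9 members had a sum of exactly 2 (2 untreated and 7 with 4OH-tamoxifen), 18 a sum of 3 or 4 (3 and 15) and 55 a sum of 5 or more (20 and 35). Just outside it were 9 inhibitory neurons of the 4OH-tamoxifen library with a sum of 1 that was their largest, and 1 cell in each library with a sum of at least 2 that was not the largest. The sums of the other 4 sets were all at 0 in 15 of 25 and 40 of 57 members.

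All genes of the rule were then left out, and the 15 nearest inhibitory neurons of each cell were found within its own library. They were taken from 25 principal components of 1000 variable genes. The members were chosen with earlier results of these data known, so these shares are a description and no independent measure of likeness. Of the neighbours of members, 78.9% were members in the untreated library and 76.6% with 4OH-tamoxifen, against 26.6% and 15.7% of the inhibitory neurons of those libraries. Members were over 50% of the neighbours of 23 of 25 and 45 of 57 members, and of 3 of 69 and 5 of 306 other inhibitory neurons. The share was highest, at 84.0% and 88.0%, for members with a rule sum of 5 or more. It was 53.3% and 68.9% for those with a sum of 3 or 4, and 66.7% (2 cells) and 36.2% (7 cells) for those with 2. The 9 cells just outside the rule, with a sum of 1, had 48.9%. Members with a sum of 2 were also the shallowest, with medians of 2451.5 and 2677 UMIs against 8793 and 4286 at 5 or more, and the part of depth was not tested.

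**Figure D3:**
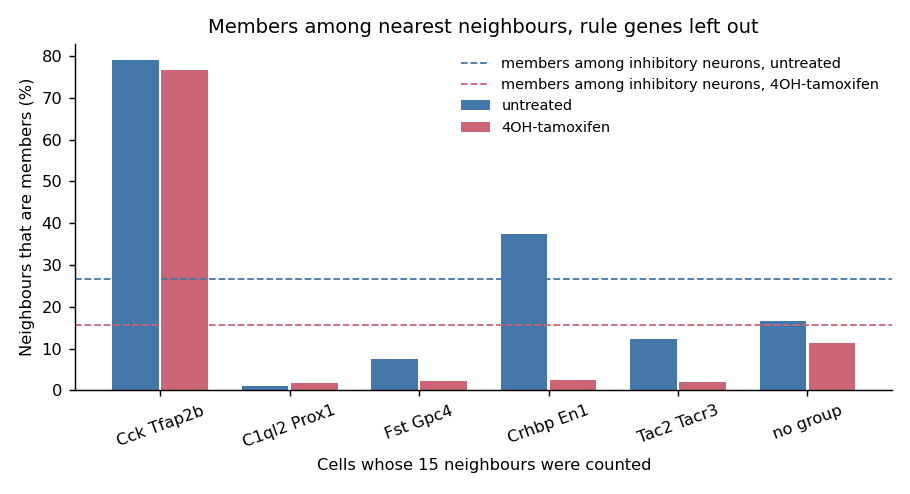
Percent of the 15 nearest neighbours that were members (y axis) for the cells of each group (x axis), untreated in blue and 4OH-tamoxifen in red, with all rule genes left out. Dashed lines give the members' share of each library's inhibitory neurons. Members had 78.9% and 76.6%, and in the untreated library the 8 Crhbp En1 cells came next with 37.5%, against 2.62% for the 56 Crhbp En1 cells of the other library. Since 8 cells are fewer than the 15 neighbours counted, those cells had to have neighbours outside their group.

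*Pnmt*, which encodes the enzyme that turns noradrenaline into adrenaline, was not used by the rule, but was put beside its genes as a marker with earlier results of these data known, so its counts are a description. It was found in 10 of 25 untreated members (40.0%, 21.1 to 61.3) with 31 UMIs and in 12 of 57 4OH-tamoxifen members (21.1%, 11.4 to 33.9) with 27 UMIs. Among other inhibitory neurons it was found in 1 of 69 and 1 of 306. Cells with at least 10 UMIs of the microglial C1q genes served as the background and had it in 0 of 401 and 0 of 726, at medians of 4125 and 2495.5 UMIs, which allows up to 0.748% and 0.413%. After thinning to 2000 UMIs, *Pnmt* was found in 5 of 25 and 10 of 55 members and in another random draw in 13 of 80 over both. In the untreated library 1 member held 13 of the 31 UMIs.

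The other genes of adrenaline synthesis had few or no UMIs in the members. *Th*, for tyrosine hydroxylase, the first enzyme of the pathway, and *Dbh*, which makes noradrenaline, were each found in 0 of 82 members, which allows up to 3.66% of cells with a UMI and does not limit the share that expresses the gene. *Slc6a2*, the noradrenaline transporter, was also found in 0 of 82. *Ddc* was found in 3 members and *Slc18a2*, the vesicular monoamine transporter, in 1, each with 1 UMI. Of the 15 catecholamine genes listed, 4 had enough UMIs to compare and *Pnmt* alone passed 2-fold in both libraries.

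Pooled over the libraries, *Pnmt* was found in 21 of 63 members with *Cck* (33.3%, 22.0 to 46.3) and in 1 of 19 without (5.26%, 0.133 to 26.0), in 13 of 27 with *Npff* and 9 of 55 without, in 20 of 60 with *Tfap2b* and 2 of 22 without, and in 18 of 60 with *Dmbx1* and 4 of 22 without. These shares mix libraries that differed in the genes. Within libraries, *Pnmt* was in 6 of 13 untreated members with *Npff* and 4 of 12 without, and with 4OH-tamoxifen in 7 of 14 and 5 of 43. For *Tfap2b* it was 10 of 18 and 0 of 7, and 10 of 42 and 2 of 15, and for *Dmbx1* 9 of 18 and 1 of 7, and 9 of 42 and 3 of 15. Members with and without *Pnmt* had medians of 8718 and 7370 UMIs in the untreated library and 3844 and 4286 with 4OH-tamoxifen. Among members with *Cck* the share with *Pnmt* was 10 of 20 untreated and 11 of 43 with 4OH-tamoxifen. The 9 members with a sum of exactly 2 had none.

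Members had *Slc6a5*, the neuronal glycine transporter, less often than other inhibitory neurons did. *Gad1*, *Gad2* and *Slc6a5* together admitted cells as inhibitory neurons, so a cell with little *Slc6a5* had to carry *Gad1* or *Gad2*, and these values are a description. *Gad1*, for the main GABA-making enzyme, was found in 25 of 25 and 56 of 57 members at 887 and 834 CPM (UMIs of the gene per 1000000 UMIs summed over the cells), against 640 and 450 CPM in other inhibitory neurons. *Gad2* was found in 25 and 55 members, at 1008 and 1088 CPM against 851 and 820. *Slc6a5* was found in 6 of 25 (24.0%, 9.36 to 45.1) and 15 of 57 members (26.3%, 15.5 to 39.7), but in 53 of 69 and 234 of 306 other inhibitory neurons (76.8% and 76.5%). In CPM this was 52.5 and 77.5 in members against 336 and 425. Of 13 further genes of GABA and glycine handling, 10 could be compared, and none was 2-fold higher or lower in both libraries, with median log2 ratios of 0.13 and 0.10.

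Across the transcriptome, members were compared with the other inhibitory neurons of the same library by summed CPM, after 10 CPM was added to both sides. A gene was called when it was at least 2-fold apart in the same direction in both libraries. Of 4239 genes with enough counts, 68 were higher in members (1.6%) and 82 lower (1.93%), and the median log2 ratio over all genes was 0.01 in each library. These are descriptions of 2 libraries with no test. With at most 10% mitochondrial UMIs, which kept 8 and 34 members, 24 genes were higher and 51 lower. The counts were 20 and 42 with cells thinned to 2000 UMIs and 34 and 33 with 50 CPM added. A minimum of 50 UMIs left 37 higher, and no filter on low counts gave 157 lower.

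**Figure D4:**
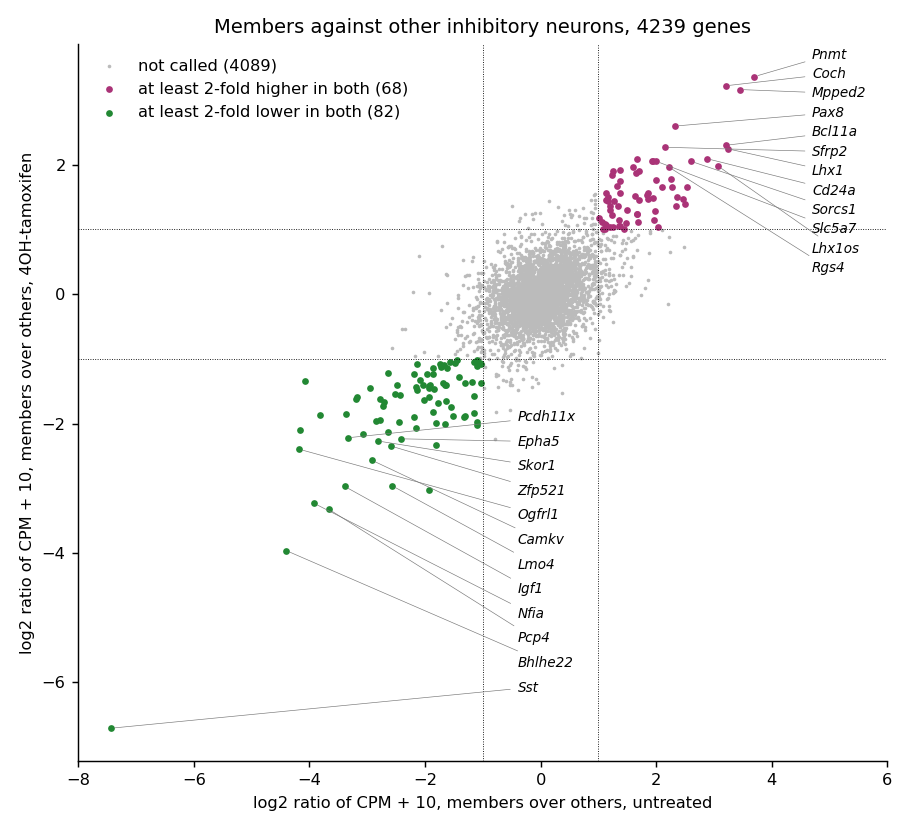
Log2 ratio of CPM plus 10, members over other inhibitory neurons, for the untreated library (x axis) and the 4OH-tamoxifen library (y axis), for 4239 genes with the rule genes left out. The 68 genes at least 2-fold higher in both are purple, the 82 lower are green, and the 12 furthest in each direction are named; for *Sst*, *Bhlhe22* and *Camkv*, at 0 in members, the position depends on the 10 CPM added.

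By the smaller of the 2 library ratios, the gene furthest up after *Pnmt* was *Coch*, for the secreted protein cochlin, known from the inner ear. It was at 173 and 133 CPM in members against 9.82 and 5.33 in others, at least 9.24 times higher in each library, and was found in 13 of 25 and 20 of 57 members. *Mpped2*, for a metallophosphodiesterase, was at 352 and 258 CPM against 22.9 and 20.01, and was found in 22 of 25 and 40 of 57 members. No gene outside the rule among the 12 furthest up was in a larger share of members than *Mpped2*, 75.6% over both libraries against 8.53% of other inhibitory neurons and 2.13% of cells with C1q.

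Transcription factors of the inhibitory hindbrain lineages were on both sides. Of 71 listed, 21 could be compared, 5 were higher in members and 7 lower, with median log2 ratios of 0.45 and 0.17. *Lhx1*, a LIM homeodomain factor of early inhibitory neurons, was at 99.7 and 84.8 CPM in members against 1.64 and 10.0, and its divergent noncoding neighbour *Lhx1os* at 268 and 192 CPM against 22.9 and 41.3. *Pax8*, a paired-box factor, was at 131 and 107 CPM against 18.0 and 9.34. *Zfhx3* and *Zfhx4*, zinc-finger homeobox factors, were also higher in members, by at least 3.20 and 3.28 times. *Bcl11a*, a zinc-finger factor outside that list, was at 173 and 148 CPM against 9.82 and 22.0.

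The lineage factors lower in members included the 3 listed nuclear factor I genes, which act in the maturation of neurons and glia. *Nfia* was at 31.5 and 66.4 CPM in members against 617 and 709 in others, and was found in 4 of 25 and 10 of 57 members against 53 of 69 and 225 of 306 others. *Nfib* had 1 and 15 UMIs in members against 161 and 405 in others, and *Nfix* 2 and 15 against 170 and 342. *Bhlhe22*, a basic helix-loop-helix factor, was found in 0 of 82 members and in 40 of 69 and 115 of 306 others, at least 12.8-fold and 13.2-fold lower when members are set to a floor of 3 UMIs per library. *Skor1*, a corepressor of dorsal inhibitory neurons, had 0 and 1 UMIs against 37 and 84. *Nr2f2* and *Tcf4* were also lower. *Zfp521*, a zinc-finger factor outside the list, was at 21.0 and 14.8 CPM against 177 and 116.

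*Pax2*, a paired-box factor of dorsal inhibitory neurons, was at 89.2 and 81.1 CPM in members against 40.9 and 50.7, 1.95 and 1.502 times after 10 CPM was added, and so was not called. *Pax2* and *Lhx1* were found together in 12 of 82 members, of which 31 had *Pax2* and 30 had *Lhx1*. They were found together in 0 of 375 other inhibitory neurons, of which 79 had *Pax2* and 15 had *Lhx1*. Whether the genes share cells more often than these counts imply was not tested. *Tfap2a*, the close relative of *Tfap2b*, was found in 0 of 82 members and in 28 of 375 others. *Lhx5*, the relative of *Lhx1*, differed between the libraries, with 7 of 25 untreated members and 0 of 57 with 4OH-tamoxifen (which allows up to 5.26%). After thinning *Lhx5* was left in 1 of 25 members.

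With the libraries pooled, the Crhbp En1 group was the closest to the members in several of these genes. Of its 64 cells, 56 were of the 4OH-tamoxifen library, at a median of 6014.5 UMIs against 4213 for members there. The part of depth was not tested. Over both libraries *Lhx1* was found in 36.6% of members and 17.2% of Crhbp En1 cells, and in 0% of C1ql2 Prox1, Fst Gpc4 and Tac2 Tacr3 cells. *Lhx1os* was found in 59.8% and 40.6%, and in 0.893% to 7.02% of the other 3 groups. *Nfia* was at 52.0 CPM in members and 145 CPM in Crhbp En1 cells, against 698 to 1027 CPM in the other 3 groups, and *Bhlhe22* was at 0 and 2.30 CPM. *Sst* and *Slc6a5* separated them, in 0% and 25.6% of members and in 17.2% and 84.4% of Crhbp En1 cells.

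**Figure D5:**
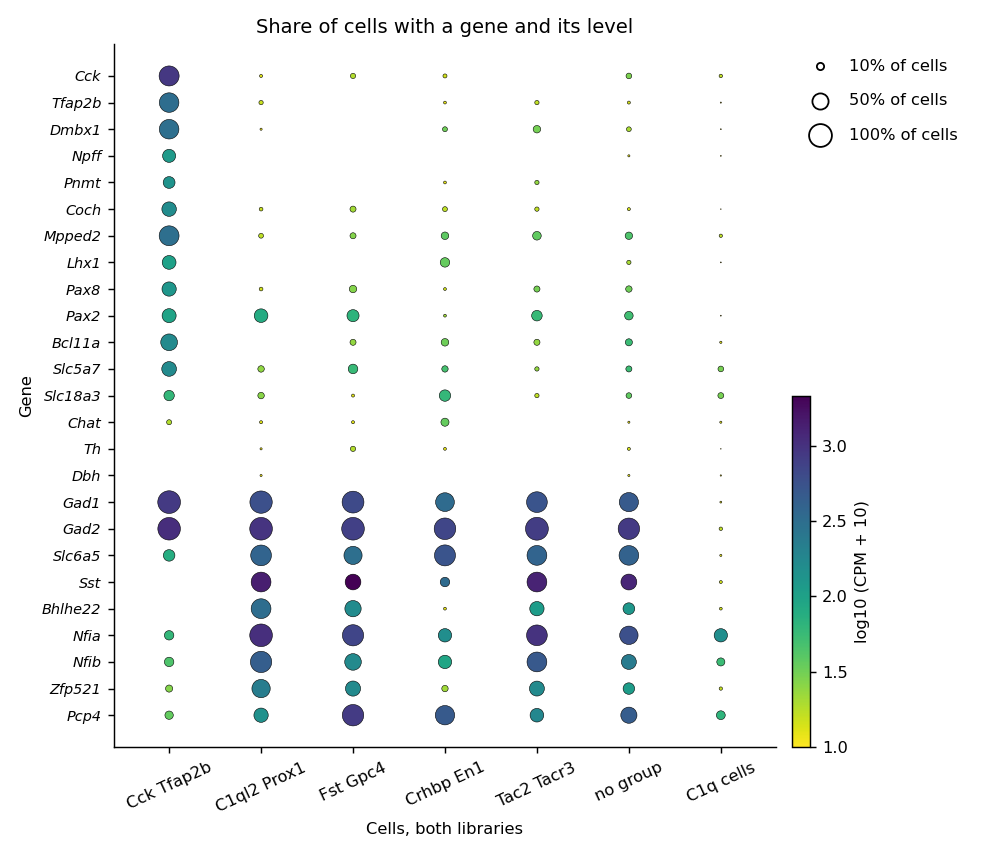
Share of cells with at least 1 UMI (dot size) and level as log10 of CPM plus 10 (colour) of 25 genes (y axis) in the 5 groups, in inhibitory neurons with no group and in cells with C1q (x axis), both libraries together. Members had *Mpped2* in 75.6% and *Pnmt* in 26.8% of cells, and *Sst* and *Bhlhe22* in 0 of 82.

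*Sst*, for somatostatin, the peptide that names another inhibitory class of the study, was not found in members. It had 0 UMIs in 25 and in 57 members, against 1050 UMIs in 69 and 1553 in 306 other inhibitory neurons (1719 and 1036 CPM). With members at the floor of 3 UMIs per library, this was at least 109-fold and 93.6-fold lower. *Sst* was found in 62.3% and 50.7% of the other inhibitory neurons and in 1.25% and 1.93% of cells with C1q. The 0 of 82 members allow up to 3.66%, which is above that background, so members and background cannot be ranked.

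Among the other genes listed for interneurons, some were lower in members. In the study *Reln* and *Nos1* tell clusters of *Sst* neurons apart, so they name no class of their own. *Reln*, for the secreted protein reelin, was found in 1 of 25 and 6 of 57 members, against 28 of 69 and 87 of 306 others. *Nos1*, for the neuronal nitric oxide synthase, was found in 1 and 4 members, against 16 and 36 others. *Pvalb*, for the calcium buffer parvalbumin, was found in 0 and 3 members and was too low to compare. Of 10 such genes with *Sst* included, 4 could be compared and 3, *Sst*, *Reln* and *Nos1*, were lower, with median log2 ratios of -2.57 and -1.41. The fourth was *Lamp5*, at 325 and 332 CPM in members against 701 and 596.

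Peptide genes outside the rule were mostly too low to compare, with 7 of 34 passing. *Npb*, for neuropeptide B, was at 99.7 and 88.5 CPM in members against 26.2 and 15.3, and was found in 13 of 25 and 21 of 57 members. The neurexophilins *Nxph4* and *Nxph3*, which bind neurexins at synapses, were higher as well, with *Nxph4* at 451 and 398 CPM against 172 and 149. *Calca* (calcitonin gene-related peptide), *Nxph1* and *Sst* were lower. The 7 genes had median log2 ratios of 0.28 and 0.71, the same when genes at 0 were set to the floor.

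*Vip*, for vasoactive intestinal peptide, was found in 1 of 25 and 4 of 57 members and in 0 of 69 and 2 of 306 others. *Gal*, for galanin, was found in 4 of 25 untreated members with 10 UMIs and in 0 of 57 with 4OH-tamoxifen. *Npy*, *Tac1* and *Pdyn* were found in 0 of 82. Of 16 genes of peptide processing and dense-core vesicles 12 could be compared and none passed 2-fold in the same direction in both libraries. *Pam*, an enzyme that amidates peptides, was 3.67 times higher in untreated members and 1.56 times with 4OH-tamoxifen. *Cckar*, *Npffr1* and *Npffr2*, receptors for the peptides of the group, were found in 0 of 82 members, and *Cckbr* in 1.

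*Slc5a7*, the high-affinity choline transporter, was at 142 and 170 CPM in members against 27.8 and 33.3, and was found in 11 of 25 and 23 of 57. Cells with C1q had it in 5.74% and 6.47%, and other inhibitory neurons in 13.04% and 7.84%. The vesicular acetylcholine transporter *Slc18a3* was found in 8 of 25 and 9 of 57 members and in 3 of 69 and 31 of 306 others, and *Chat*, the enzyme that makes acetylcholine, in 2 and 2, each with 1 UMI. The 4 members with *Chat* all had *Slc5a7*, and 30 members had *Slc5a7* without *Chat*. *Slc5a7* and *Pnmt* were found together in 4 members, 30 had the first alone and 18 the second alone. Cells selected by at least 2 UMIs of *Chat* had *Slc5a7* at 1688 CPM over both libraries. *Isl1*, a factor of motor neurons, was found in 1 of 82 members.

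Of 11 acid-sensing genes compared, out of 22 listed in view of the region's role, *Asic4* of the acid-sensing channel family was higher, at 173 and 114 CPM against 49.1 and 33.3, and *Kcnk2*, a two-pore potassium channel, lower, at 10.5 and 29.5 CPM against 67.1 and 94.7. The proton receptor *Gpr4* was found in 1 of 82 members and the potassium channel *Kcnk5* in 0.

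Receptor genes gave 3 higher and 3 lower. The serotonin receptors *Htr2c* (388 and 413 CPM against 144 and 115) and *Htr1b* (142 and 140 CPM against 29.5 and 26.0) were higher, out of 7 peptide and monoamine receptors compared. Of 11 ionotropic glutamate receptor genes, *Grik3* was higher, and *Gria1* and *Grin2a* lower. Of 13 receptor subunits for GABA and glycine, *Gabra5* was lower, at 5.25 and 14.8 CPM against 77.0 and 62.0. Of the 11 immature neuron genes compared, none was apart by 2-fold in both libraries, though *Stmn1*, for a regulator of microtubules, was 3.22 and 1.87 times higher in members, with median log2 ratios of 0.29 in both libraries.

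Beyond these lists, the 12 genes furthest up included *Sfrp2*, a secreted modulator of Wnt signals, *Cd24a*, a surface protein of young neurons, *Sorcs1*, a sorting receptor, and *Rgs4*, a brake on G-protein signals, at least 4.44, 4.26, 4.15 and 3.90 times higher. The 12 furthest down included *Pcp4*, a calmodulin-binding protein, at 15.7 and 33.2 CPM against 316 and 423, and *Lmo4*, at 36.7 and 33.2 CPM against 269 and 326. The gene body of *Pcp4* overlaps that of *Igsf5* on the same strand, so the count of *Pcp4* is uncertain. *Epha5*, an ephrin receptor, was at 142 and 129 CPM against 801 and 646, while its relatives *Epha4* and *Ephb1* were higher in members by at least 2.58 and 3.82 times. *Igf1* had 0 and 1 UMIs in members against 58 and 146, *Camkv* 0 and 0 against 40 and 74, *Pcdh11x* 1 and 4 against 88 and 158, and *Ogfrl1* 1 and 12 against 162 and 414. For *Camkv* this was at least 4.16-fold and 4.46-fold lower.

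Markers of other cell types bounded what else the barcodes held. The 3 glutamatergic, 3 serotonergic and 3 fibroblast markers were at 0 in all 82 members. Myelin genes, with *Mbp* in every member, summed to 7324 and 12441 CPM in members, 5202 and 9235 CPM in other inhibitory neurons and 12093 and 20833 CPM in cells with C1q. With 4OH-tamoxifen, 1 member held 992 of the 3373 myelin UMIs of members, and 1 other inhibitory neuron held 1085 of 13848. *Cldn11*, a myelin gene, was among the 68 higher genes, at 205 and 704 CPM against 80.2 and 338, and the part of myelin RNA in this was not tested. *Rgs5*, a pericyte marker, was higher in members (52.5 and 99.6 CPM against 16.4 and 20.7), and the 4 pericyte markers summed to 63.0 and 125 CPM against 26.2 and 35.3. *Abcc9* was at 10.5 and 22.1 CPM in members against 6.55 and 5.33. *Kcnj8* had 0 and 1 UMIs in members against 0 and 2, and *Vtn* 0 in members against 2 and 12. *Abcc9*, *Kcnj8* and *Vtn* were each too low to compare. The part of pericyte RNA was not tested. The 6 microglial markers summed to 57.7 and 177 CPM in members and 239 and 97.4 CPM in other inhibitory neurons. Single cells carried much of these sums, since 1 untreated cell held 111 of the 146 UMIs of the others and 1 member held 19 of the 48 with 4OH-tamoxifen.

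Between the libraries, 251 of 4492 genes in members were at least 2-fold apart (5.59%), 169 higher with 4OH-tamoxifen (3.76%) and 82 higher in untreated mice (1.83%), with a median log2 ratio of 0.02. In other inhibitory neurons, where the sums held 610703 and 1499570 UMIs, 70 of the same genes were apart (1.56%). The genes furthest up with 4OH-tamoxifen were *Nefm*, for the medium neurofilament, at 26.2 (8.52 to 61.3) against 192 (143 to 252) CPM, then *Apba2*, *Slc45a4*, *Fbxo41* and *Timm50*, which had 2 or 3 UMIs in untreated members. *Nefm* was also higher with 4OH-tamoxifen in other inhibitory neurons, at 154 and 381 CPM. Furthest in the other direction were *Fam92a*, *Prrt3*, *Ebp*, *H2afy2* and *Tvp23b*, with 15 to 25 UMIs in untreated members. The count of genes apart depended on the treatment of low counts. It was 35 with 50 CPM added, 42 with at least 50 UMIs, 122 after thinning, 390 with 1 CPM added and 1517 with no filter. These differences rest on 1 library each.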

How the data were processed

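The authors aligned the reads to the mm10 (GRCm38) reference and deposited the count of UMIs per gene and barcode, not normalized; the submitters' processing notes name bcl2fastq 2.18.0.12 and Cell Ranger 2.2.0. Counts were analysed in Python 3.11.15 with scipy 1.17.1 and scanpy 1.11.5. The members and gene lists were chosen with earlier results of these data known. Barcodes were filtered and placed in groups by the rule given above, and doublets were left in. Scrublet marked 0 of 25 and 6 of 57 members. The highest scores, as many per library as the loading rate (0.8% per 1000 barcodes) expects, included 1 and 7 members. UMIs were summed over cells per library as CPM. Genes were compared when members and other inhibitory neurons together had at least 20 UMIs in each library and the higher side had at least 50 CPM over both libraries, and between libraries when members had at least 20 UMIs in all. Genes named were those of the rule, of the lists, and the 12 furthest in each direction in the library with the smaller ratio, or 5 between libraries; *Bcl11a*, *Zfp521*, *Cldn11*, *Epha4*, *Ephb1* and the gene pairs include choices made after their values were seen. Gene bodies are those of GENCODE M21. Results for some genes these rules name are not reported here. The scripts were tested on simulated data.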

Additional observations from a re-analysis of the deposited data

How the results depend on the processing

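The 7 summary values were recomputed under 21 planned settings and 2 chosen after seeing the data. Of 98 values, 80 stayed within the limits set (1.5 times for counts, the 95% interval for shares) and 18 moved. With at most 10% mitochondrial UMIs, 42 members were left, 24 genes were higher, 51 lower. With cells thinned to 2000 UMIs, 20 genes were higher, 42 lower and 122 apart between libraries, and *Pnmt* was in 16.3% of members (13 of 80, against 15 of 80 in another random draw); fewer genes then pass the count filter. Adding 1 CPM gave 390 genes apart between libraries, and adding 50 CPM gave 34 higher, 33 lower and 35 apart. A minimum of 50 UMIs gave 37 higher and 42 apart, and no filter on low counts gave 157 lower and 1517 apart. With at least 2 UMIs required, *Pnmt* was in 14.6% of members. Applying the rule after thinning gave 51 members. Without thinning, and with cells of no group left out, the members were 23.9% of the rest. The number of genes apart between libraries thus ranged from 35 to 1517 and depends on the treatment of low counts. Leaving *Cck* out of the sum kept 69 members, leaving *Npff* out 81, and leaving out Scrublet doublets 76. No paired analysis was possible because each condition has 1 library, and no replicate could be left out. Depth limits genes with few UMIs: with 25 members, 0 cells with a UMI of a gene allows up to 12% of such cells to have one, and says less of the cells that express it.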

Other observations

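Members with and without *Pnmt*, and with and without *Cck*, were set side by side. Of 4294 genes, 91 were at least 2-fold higher in the 22 members with *Pnmt* and 226 in the 60 without; the former were 10 untreated and 12 4OH-tamoxifen cells and the latter 15 and 45, so library and *Pnmt* cannot be told apart in these sums. In the split by *Cck*, 291 of 4285 genes were higher in the 63 members with it and 94 in the 19 without, so in both splits the side with more cells had more genes higher. The members with *Pnmt* (22 cells, 133897 UMIs) had *Vgf*, for a secreted granule protein, at 329 CPM against 88.5 in the 60 without it, *Tfrc*, the transferrin receptor, at 164 against 30.5, and *Hpcal1*, a calcium sensor, at 381 against 125. *Sema5a* and *Ntng1*, both for proteins of axon guidance and adhesion, had 0 UMIs in members with *Pnmt* and 34 and 22 UMIs in those without. *Ntng1* was also lower in members with *Cck*, at 22.1 CPM in 63 cells against 141 in the 19 without, as were *Cbln2*, a synaptic organizer (46.9 against 212), and *Tshz2*, a zinc-finger factor (55.2 against 242). These genes are examples from the 8 furthest apart in each direction of these splits, over both libraries together, with no test, and both splits were chosen after values were seen.

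The 4 members with *Cck* alone of the rule's genes, all of the 4OH-tamoxifen library, held 14356 UMIs in all. Against the 19 members without *Cck*, they had more *Mt2*, *Apoe*, *Slc6a11*, *Mt1*, *Sdhb*, *Ahcyl1* and *Dync1i2*, with *Apoe*, a lipid carrier made chiefly by astrocytes, at 5851 CPM against 1221, and *Slc6a11*, the GABA transporter of astrocytes, at 836 against 182. *Auts2*, *Snap47*, *Dcaf7*, *Rufy3*, *Arl8b*, *Rgs4*, *Got1* and *Eno1* had 0 UMIs in these 4 cells and 27 to 35 in the 19, which held 99111 UMIs and include 5 untreated cells. These genes were picked as the furthest apart of 1047 compared. Their intervals cover counting error only and test no difference. For *Eno1*, *Got1* and *Rgs4* the interval of the ratio even reaches 1.01 and so includes no difference. Scrublet marked 1 of the 4 as a doublet, and 2 were among the highest scores, as many as the loading rate expects.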
